A study of Mus musculus with 23 samples.

Results

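Voltage-gated sodium channel subunits were examined as a set of 7 genes among the 45706 gene IDs of the count table. The set was given by name and holds 4 genes for pore-forming alpha subunits, Scn1a, Scn2a, Scn3a and Scn8a, and 3 genes for beta subunits, Scn2b, Scn3b and Scn4b. Each symbol was matched to its Ensembl ID in the table, and all 7 genes passed the filter on low counts, the lowest count of any of them in a library being 1348 reads.

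A voltage-gated sodium channel opens on depolarisation, lets sodium into the cell and so carries the rising phase of the action potential, then closes within milliseconds through a built-in inactivation gate. Each channel is a large alpha subunit that forms the pore and the gate, joined by smaller beta subunits that alter gating and bind cell adhesion partners. Among the neuronal alpha subunits, Scn1a encodes NaV1.1, known for its role in inhibitory interneurons, Scn2a and Scn8a encode NaV1.2 and NaV1.6, the main channels of the axon initial segment of pyramidal cells, and Scn3a encodes NaV1.3, which is most abundant before birth. Scn2b and Scn4b encode beta subunits that can bind the alpha subunit through a disulphide bond, while the beta subunit encoded by Scn3b binds without one.

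Polyadenylated RNA of the mouse hippocampus was sequenced in 23 libraries from 3 labelled populations, to compare wild-type (WT) mice with mice carrying a conditional knockout (cKO) of Slm2, the splicing regulator whose gene symbol is Khdrbs3. CamK and Grik libraries were labelled as excitatory pyramidal cells and SST libraries as somatostatin-positive interneurons. The design text names CA1 and CA3 as the excitatory fields. There were 4 CamK WT and 3 CamK cKO libraries, 4 Grik WT and 4 Grik cKO libraries, and 4 SST WT and 4 SST cKO libraries. Not given in the sources used here are age, sex, the driver lines, how the cells were isolated, and which exons are deleted. Population therefore cannot be told apart from driver line, and p-values measure the spread between libraries, which no label ties to separate animals.

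Genes took 87612006 to 112993538 reads per library, so counting error of these genes is small beside the spread between libraries. The labels were checked on marker genes. All 3 CA1 markers were higher in CamK WT than in Grik WT, all 4 CA3 markers were lower, and all 4 GABA neuron markers and all 3 somatostatin interneuron markers were higher in SST WT than in either excitatory population. Sst itself varied widely over the SST WT libraries, from 159 to 1720 counts per 1000000 reads. Elfn1 ran from 212 to 278 and Npy from 520 to 769 in the same libraries. The 4 excitatory neuron markers Slc17a7, Camk2a, Neurod2 and Neurod6 were called higher in CamK and in Grik than in SST. The 3 granule cell markers of the dentate gyrus, Prox1, Dsp and C1ql2, also passed as lower in SST than in CamK and in Grik, with a summed level of 97.9 to 259 CPM (counts per 1000000 reads) in CamK WT, 139.9 to 149.7 CPM in Grik WT and 27.6 to 38.8 CPM in SST WT. The name pyramidal below therefore follows the labels, and the part of granule cells in the levels of the sodium channel genes was not tested. None of the markers was at 0 in all libraries of a group. The targeted gene Khdrbs3 differed between libraries labelled cKO and WT by -0.42 in CamK (edgeR adjusted p 0.114), by 0.30 in Grik (unadjusted p 0.000449 and adjusted p 0.499 in edgeR) and by -0.47 in SST (edgeR adjusted p 0.0309) on the log2 scale. Its direction in Grik went against the label, with 396 to 439 CPM in the libraries labelled cKO and 327 to 347 CPM in those labelled WT, and its difference in Grik was itself different from that in CamK (edgeR adjusted p 0.0154) and in SST (edgeR adjusted p 0.00135). So cKO and WT below name the labels, and the comparisons of member levels in Grik WT with CamK WT and SST WT were repeated with the Grik libraries labelled cKO in place of those labelled WT. In bulk RNA, a smaller number of cells of a type and less RNA per cell cannot be told apart.

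Positions are from the GENCODE M21 annotation of GRCm38, and several members are neighbours in the genome. Scn3a (ENSMUSG00000057182, chr2:65457118-65567627, minus strand), Scn2a (ENSMUSG00000075318, chr2:65620771-65767447, plus strand) and Scn1a (ENSMUSG00000064329, chr2:66270778-66440840, minus strand) follow each other on chromosome 2, with gaps of 53.1 and 503.3 kb. Scn8a (ENSMUSG00000023033, chr15:100869858-101045938, plus strand) lies alone. Scn2b (ENSMUSG00000070304, chr9:45117782-45130070, plus strand) and Scn4b (ENSMUSG00000046480, chr9:45138395-45154152, plus strand) are 8.3 kb apart on chromosome 9, which also carries Scn3b (ENSMUSG00000049281, chr9:40269217-40291618, plus strand). Scn1a, Scn3a, Scn2b and Scn3b each overlap a predicted gene on the opposite strand (Gm13630, Gm13595, Gm10684 and Gm47266). Reads of these overlaps may be assigned to either gene, as the strand setting of the counting is not given in the sources used here.

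The alpha subunit genes are close copies, which bears on how their reads are told apart. Over the aligned coding sequence, Scn1a and Scn2a were 82.5% identical, Scn1a and Scn3a 81.4%, and Scn2a and Scn3a 83.3%, while Scn8a was 73 to 73.8% identical to the other alpha genes. The beta genes shared only 40 to 49.5% of aligned coding bases. Exact 50-base windows that also occur in another gene made up 5.48% of the Scn1a transcript, 7.87% of Scn2a, 8.53% of Scn3a and 0.0527% of Scn8a, so a small part of the reads of the chromosome 2 genes may match several places.

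Scn1a separated the interneurons from both pyramidal populations more than any other member. Its level was 43.8, 43.4, 41.1 and 39.5 counts per 1000000 reads (CPM, with TMM scaling) in CamK WT replicates 2, 3, 4 and 5. In Grik WT replicates 3, 4, 5 and 6 it was 53.2, 51.6, 57.8 and 42.4 CPM. In SST WT replicates 1, 2, 3 and 5 it was 133, 185, 183 and 174 CPM. Every SST library lay above every pyramidal library, and the lowest SST value was that of replicate 1. Group means were 41.9 ± 2.02 CPM in CamK, 51.2 ± 6.42 CPM in Grik and 168 ± 24.4 CPM in SST (SD, n = 4 each). Scn1a was 4.02-fold lower in CamK than in SST (log2 fold change -2.01, SE 0.10, adjusted p 8.65e-15 in edgeR's quasi-likelihood test over 18823 genes) and 3.29-fold lower in Grik than in SST (-1.72, SE 0.10, edgeR adjusted p 1.06e-13). The SST libraries also held Pvalb, a marker of another interneuron type, at 113.7 to 172 CPM in WT, against 0.745 to 1.31 CPM in CamK WT and 0.699 to 1.54 CPM in Grik WT. Pvalb belongs to a list of 4 markers of other interneurons, of which Lamp5 and Cck went the other way, Cck being at 13.4 to 18.8 CPM in SST WT and at 249 to 415 CPM in the pyramidal WT libraries. Vip was higher in Grik WT (6.79 to 17.1 CPM) than in SST WT (0.342 to 0.772 CPM) and did not pass between CamK and SST. The 4 genes summed to 135 to 204 CPM in SST WT, 364 to 455 CPM in CamK WT and 286 to 409 CPM in Grik WT, and none was at 0 throughout. Their part in the Scn1a difference was not tested.

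Scn2a ran the other way, with its highest level in Grik and its lowest in SST. It stood at 206, 216, 195 and 196 CPM in CamK WT, at 279, 256, 265 and 229 CPM in Grik WT and at 115, 157, 153 and 168 CPM in SST WT, in the same order of replicates. The 3 groups did not overlap. Scn2a was 1.37-fold higher in CamK than in SST (log2 0.45, SE 0.09, edgeR adjusted p 0.000142, and log2 0.69 with a score of non-neuronal markers as a covariate) and 1.73-fold higher in Grik than in SST (log2 0.79, SE 0.09, edgeR adjusted p 5.31e-08).

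Scn8a followed the same order as Scn2a. CamK WT held 215, 219.9, 209.9 and 198 CPM, Grik WT 257, 271, 302 and 228 CPM, and SST WT 138, 185, 176 and 155 CPM, again without overlap between any 2 groups. Its excess over SST was 1.29-fold in CamK (log2 0.37, SE 0.09, edgeR adjusted p 0.00147, and log2 0.65 with that covariate) and 1.62-fold in Grik (log2 0.69, SE 0.09, edgeR adjusted p 5.71e-07).

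Scn3a was the least abundant of the 4 alpha members in every population. It was at 27.8, 26.2, 23.3 and 19.3 CPM in CamK WT, 29.6, 28.8, 30.5 and 23.9 CPM in Grik WT and 14.0, 15.9, 16.7 and 17.5 CPM in SST WT. Both pyramidal groups lay above all SST libraries, and they overlapped each other. The difference from SST was 1.51-fold for CamK (log2 0.59, SE 0.10, edgeR adjusted p 2.17e-05) and 1.76-fold for Grik (log2 0.82, SE 0.10, edgeR adjusted p 2.12e-07).

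**Figure D1:**
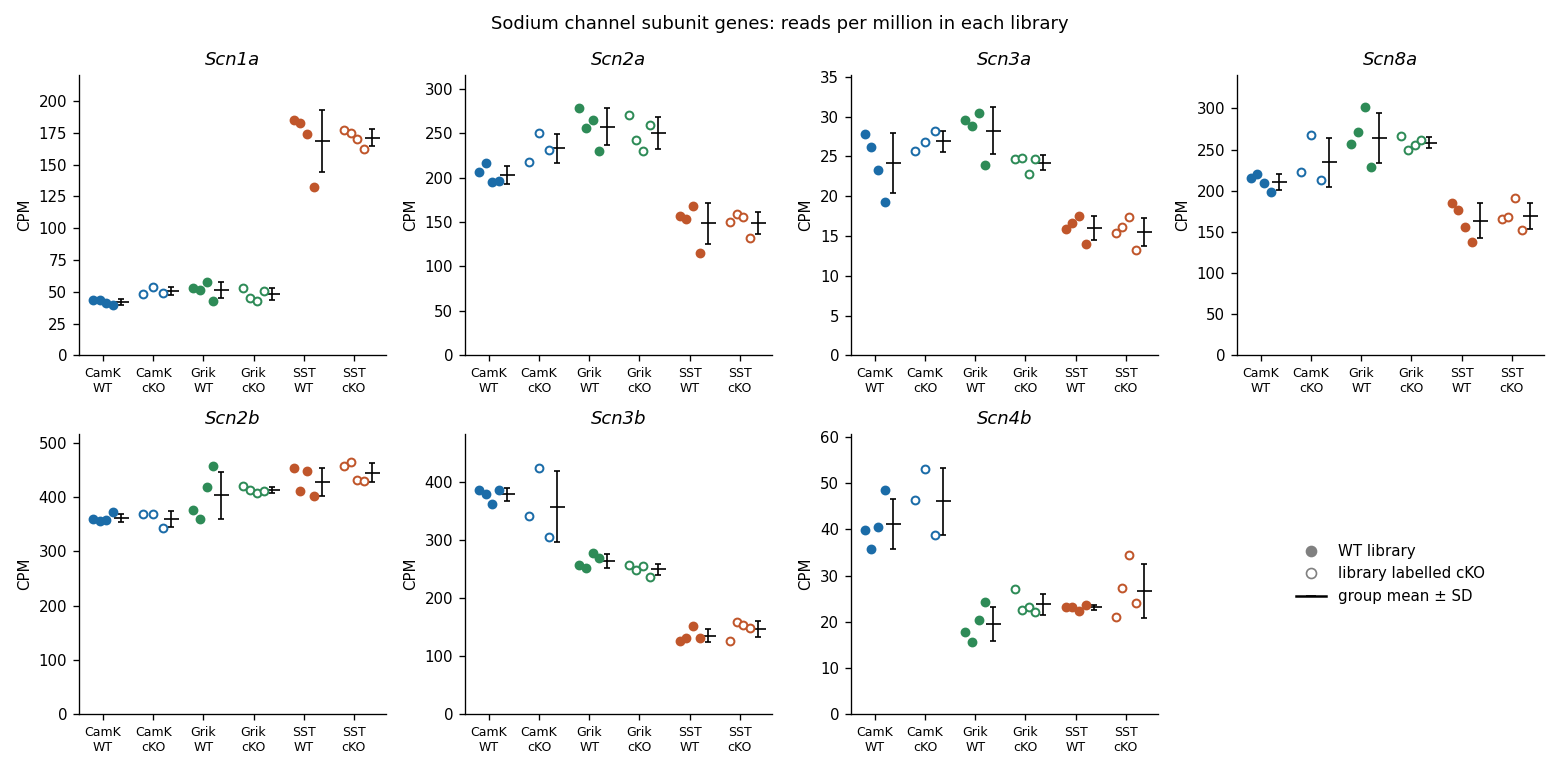
Level of each of the 7 genes in each of the 23 libraries, in counts per 1000000 reads (CPM) on a linear axis from 0. Filled points are WT libraries, open points libraries labelled cKO, and black bars give the group mean ± SD. Scn1a stands at 133 to 185 CPM in SST WT against 39.5 to 57.8 CPM in the pyramidal WT libraries, while Scn3b steps down from CamK to Grik to SST.

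Because the populations differ in more than 1 alpha gene, the composition of the alpha subunit RNA was computed within each library. Reads were divided by the summed exon length of each gene, and each gene was expressed as a share of the 4. In CamK WT, Scn2a made up 45.6 ± 0.818% and Scn8a 38.2 ± 0.524% of the total, with 10.7 ± 0.158% for Scn1a and 5.52 ± 0.625% for Scn3a (SD, n = 4). The Grik WT composition was 46.2 ± 1.97% Scn2a, 38.2 ± 1.78% Scn8a, 10.5 ± 0.382% Scn1a and 5.16 ± 0.103% Scn3a (SD, n = 4). In SST WT, Scn1a was the largest share at 39.3 ± 0.629%, followed by 30.3 ± 1.79% Scn2a, 27.1 ± 1.70% Scn8a and 3.37 ± 0.269% Scn3a (SD, n = 4). The order of the large shares depends on the division by length. As shares of reads with no length, the mean of Scn8a was above that of Scn2a in CamK WT (43.9 and 42.3%), Grik WT (43.95 and 42.9%) and SST WT (33.03 and 29.8%), and Scn1a in SST WT was at 33.9 ± 0.563% beside 33.03 ± 1.95% for Scn8a (SD, n = 4).

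The Scn1a share was 38.6 to 40.02% in the 4 SST WT libraries and 9.96 to 10.9% in the 8 pyramidal WT libraries. SST replicate 1, which had the lowest level of all 4 alpha genes in its group, had a Scn1a share of 38.6%, close to the other 3. Shares of all 4 genes differed between SST and each pyramidal population without overlap, the Scn1a difference being -28.5 percentage points for CamK against SST and -28.8 for Grik against SST. Each of these 8 differences had a two-sided exact permutation p of 0.0286, the smallest that 4 against 4 libraries allow. Adjusted over the 24 share tests it became 0.0762, so none passed 0.05. No share separated CamK WT from Grik WT (exact permutation p 0.229 to 0.943), with differences of 0.29 points for Scn1a, -0.58 for Scn2a, 0.36 for Scn3a and -0.06 for Scn8a. Single libraries moved these differences, Scn1a to 0.12 without Grik WT replicate 6 and Scn3a to 0.13 without CamK WT replicate 2 and to 0.63 without CamK WT replicate 5. Shares were not tested with the Grik libraries labelled cKO in place of those labelled WT. Those labelled cKO had 10.2 ± 0.464% Scn1a, 46.4 ± 0.928% Scn2a, 4.59 ± 0.184% Scn3a and 38.8 ± 1.31% Scn8a (SD, n = 4). Each mean was further from CamK WT than that of Grik WT, and each range overlapped CamK WT.

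**Figure D2:**
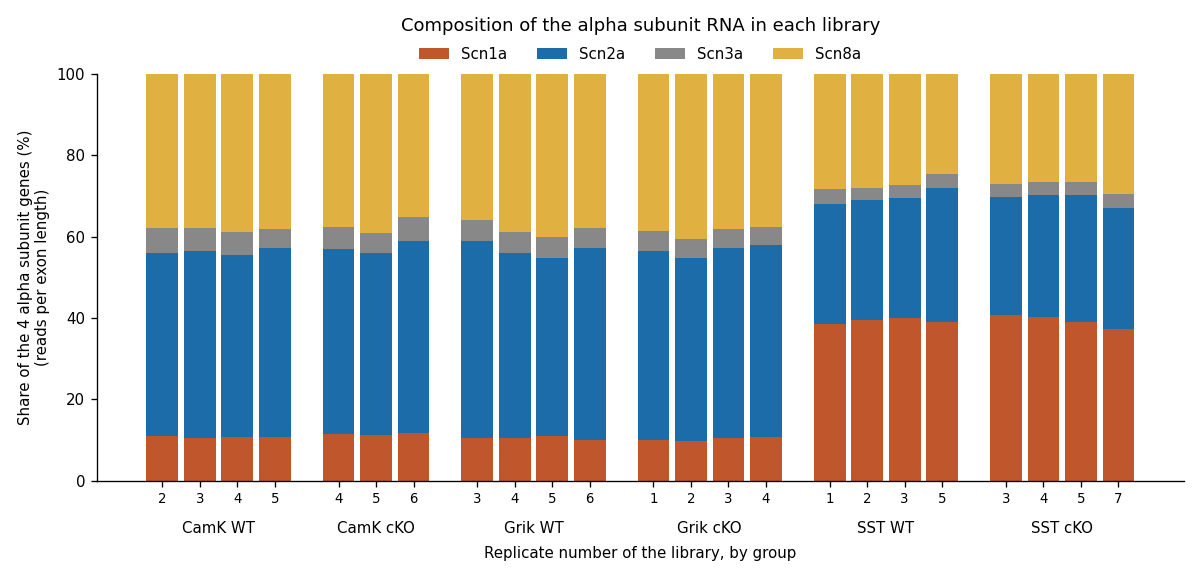
Share of Scn1a, Scn2a, Scn3a and Scn8a in the summed alpha subunit RNA of each library (percent, reads per exon length), 1 bar per library, grouped by population and label with the replicate number below. The Scn1a share is about the same in the 15 pyramidal libraries, between 9.64 and 11.6%, and 37.2 to 40.8% in the 8 SST libraries.

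The summed level of the 4 alpha genes was also compared. CamK WT had 35.0 ± 1.76 CPM per kb of exon, Grik WT 43.9 ± 3.996 and SST WT 38.4 ± 5.14 (SD, n = 4 each). SST replicate 1 was at 30.8 CPM per kb, below the CamK range of 33.0 to 36.9, and the other 3 SST libraries, at 40.1 to 41.9, lay above it, so the overlap of SST with CamK rests on that library. The Grik range of 38.2 to 47.6 lay above every CamK library, while no share separated CamK from Grik.

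Among the beta subunits, Scn3b differed most from SST in both pyramidal populations. It was at 388, 379, 363 and 386 CPM in CamK WT, 257, 253, 279 and 269 CPM in Grik WT and 131, 127, 132 and 152 CPM in SST WT. All 3 groups were apart, in the order CamK, Grik, SST. Scn3b was 2.80-fold higher in CamK than in SST (log2 1.48, SE 0.09, edgeR adjusted p 1.48e-13) and 1.95-fold higher in Grik than in SST (log2 0.96, SE 0.08, edgeR adjusted p 3.77e-10).

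Scn4b was highest in CamK. Its values were 39.8, 35.7, 40.5 and 48.6 CPM in CamK WT, 17.7, 15.6, 20.5 and 24.3 CPM in Grik WT and 23.6, 23.2, 23.3 and 22.4 CPM in SST WT. CamK lay above both other groups, which overlapped. The excess of CamK was 2.11-fold over Grik (log2 1.08, SE 0.14, edgeR adjusted p 8.81e-07) and 1.78-fold over SST (log2 0.83, SE 0.14, edgeR adjusted p 1.25e-05, and log2 1.30 with the non-neuronal covariate), and Grik differed from SST by -0.24 (log2, SE 0.14, 95% interval -0.53 to 0.04, edgeR adjusted p 0.136), a difference that passed without Grik WT replicate 6 (edgeR adjusted p 0.0328) and was 0.04 with the Grik libraries labelled cKO (edgeR adjusted p 0.827).

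Scn2b was the most even of the 7 genes. CamK WT held 360.3, 356, 358 and 373 CPM, Grik WT 377, 360.3, 419 and 457 CPM, and SST WT 402, 453, 412 and 448 CPM. It was 1.18-fold lower in CamK than in SST (log2 -0.24, SE 0.06, edgeR adjusted p 0.00196), a call lost with a non-neuronal score as a covariate (adjusted p 0.322), and Grik differed from SST by -0.09 (log2, SE 0.06, 95% interval -0.22 to 0.04, edgeR adjusted p 0.250).

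The neighbours Scn2b and Scn4b lie in the same orientation, and the base content of their promoter windows is unlike. Its bearing on their levels was not tested. Promoter windows from 250 bases before to 50 after the annotated start were taken from RefSeq (GRCm38.p6), where 5 of the 7 genes matched. Scn2b and Scn4b are printed with capitals for any match to a CCAAT box. Scn2b is at chr9:45117626-45117925 and Scn4b at chr9:45138374-45138673, both on the plus strand.
Scn2b: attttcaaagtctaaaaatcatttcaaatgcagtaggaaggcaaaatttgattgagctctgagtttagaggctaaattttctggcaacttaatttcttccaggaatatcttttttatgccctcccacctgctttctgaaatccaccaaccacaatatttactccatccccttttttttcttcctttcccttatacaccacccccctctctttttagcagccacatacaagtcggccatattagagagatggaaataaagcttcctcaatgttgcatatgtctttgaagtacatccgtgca
Scn4b: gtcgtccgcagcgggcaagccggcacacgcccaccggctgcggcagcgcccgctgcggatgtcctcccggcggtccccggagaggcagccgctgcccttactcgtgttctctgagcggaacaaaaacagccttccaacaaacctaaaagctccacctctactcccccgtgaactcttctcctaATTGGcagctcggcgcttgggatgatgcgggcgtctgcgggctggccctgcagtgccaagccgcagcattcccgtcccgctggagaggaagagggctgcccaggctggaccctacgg

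The Scn2b window had a GC content of 38.3% and 2 CpG pairs, and the Scn4b window 66.3% and 26, where all 32851 promoter windows had medians of 52.7% and 7. The search covered both strands for the TATA box (TATAAA), the CCAAT box (CCAAT), the GC box (GGGCGG) and the left part of the element bound by the repressor Rest (TTCAGCACC), and none of these motifs holds another. Scn2b held no match and Scn4b held 1 CCAAT match, on the minus strand and so printed as its reverse complement. Over all windows the shares with a match were 13.6% for the TATA box, 37.4% for the CCAAT box, 35.7% for the GC box and 0.371% for the Rest element part. A match of letters is a description and not a shown binding site. The GENCODE gene starts given above lie inside both windows. So part of the Scn2b window and most of the Scn4b window lie within the gene in that annotation.

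Every member differed between at least 1 pair of WT populations. Between CamK and SST, edgeR put 7 of the 7 genes past an adjusted p of 0.05, 5 higher and 2 lower in CamK, where it put 60.1% of all tested genes past it, 29.5% higher and 30.5% lower. Between Grik and SST, 5 of 7 passed, 4 higher and 1 lower in Grik, beside 57.3% of all genes, 28.1% higher and 29.2% lower. Between CamK and Grik, 5 of 7 passed, 2 higher and 3 lower in CamK, beside 42% of all genes, 20.9% higher and 21.1% lower. The libraries of the groups did not overlap for 7, 5 and 4 members in these comparisons, where 53.9, 52.3 and 38.3% of all genes had no overlap. The shares among the members were near or somewhat above these backgrounds, so the counts alone do not set the sodium channel genes apart. The median log2 fold change of the members was 0.45 for CamK against SST and 0.69 for Grik against SST, beside -0.02 and -0.03 over all genes. These comparisons share their WT libraries, so their values are given side by side only.

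Between the pyramidal populations, 2 beta genes were higher and 3 alpha genes lower in CamK. Scn3b was 1.43-fold higher in CamK than in Grik (log2 0.52, SE 0.08, edgeR adjusted p 1.80e-05), and Scn4b was higher as given above. Scn2a was 1.27-fold lower (log2 -0.34, SE 0.09, edgeR adjusted p 0.00402), Scn8a 1.26-fold lower (log2 -0.33, SE 0.09, edgeR adjusted p 0.00581) and Scn1a 1.22-fold lower (log2 -0.29, SE 0.10, edgeR adjusted p 0.0173) in CamK. The Scn1a libraries overlapped, since Grik replicate 6 at 42.4 CPM lay within the CamK values, and the call was lost without CamK WT replicate 5 or Grik WT replicate 5 (adjusted p up to 0.0789). Scn3a at -0.22 (SE 0.10, edgeR adjusted p 0.0820) and Scn2b at -0.16 (SE 0.06, edgeR adjusted p 0.0528) did not pass. Both stood near the threshold. Scn3a passed without CamK WT replicate 2 (edgeR adjusted p 0.0252) or Grik WT replicate 6 (edgeR adjusted p 0.0240), and was at -0.13 without CamK WT replicate 5. Scn2b passed with relative log expression scaling (edgeR adjusted p 0.0435), with DESeq2, and without Grik WT replicate 3 or 4 (lowest edgeR adjusted p 0.0154), and was at -0.09 without Grik WT replicate 6. With the Grik libraries labelled cKO in place of those labelled WT, 5 of 7 members again passed, beside 43.1% of all genes, Scn1a being lost (log2 -0.20, edgeR adjusted p 0.0991) and Scn2b gained (log2 -0.19, edgeR adjusted p 0.0182), and Scn3a was at -0.0031.

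Other measures moved with this comparison. The summed level of 17 non-neuronal marker genes was 150.7 to 234 CPM in CamK WT, 697 to 923 CPM in Grik WT and 342 to 762 CPM in SST WT, none of the genes was at 0 throughout, 13 of 17 were called lower in CamK than in Grik, and 15 of 17 lower in CamK than in SST. With a non-neuronal score as a covariate, Scn3b and Scn4b remained called and Scn1a, Scn2a and Scn8a did not (log2 -0.17, -0.15 and -0.09, edgeR adjusted p 0.461, 0.495 and 0.691). That score was -1.84 to -0.905 in CamK WT, -0.0068 to 0.519 in Grik WT and 0.151 to 0.907 in SST WT. As CamK overlapped neither, this covariate cannot be told apart from population in the CamK comparisons. The part of non-neuronal RNA in the member levels was not tested. Over 682 other genes whose longest transcript has at least 8000 bases, a group chosen after the members' values were seen, the median log2 fold change of CamK against Grik was -0.17, where all genes had 0.01. The 4 markers of excitatory neurons, none at 0 throughout, summed to 5393 to 5903 CPM in CamK WT and 6804 to 7840 CPM in Grik WT. Of these, Slc17a7 (log2 -0.71, edgeR adjusted p 0.0226) and Neurod6 (log2 -0.63, edgeR adjusted p 0.0100) were called lower in CamK, and Camk2a at -0.18 and Neurod2 at -0.25 did not pass. The part of the excitatory markers or of the long genes' shift in the lower alpha subunit levels of CamK was not tested.

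In single libraries the alpha genes were high or low together. Grik WT replicate 6 had the lowest values of all 4 alpha genes in its group and the highest of Scn2b and Scn4b. SST WT replicate 1 was lowest for all 4 alpha genes as well, but it was also lowest for Scn2b, at 402 CPM. It was highest for Scn4b, whose range in SST WT was 22.4 to 23.6 CPM. CamK WT replicate 5 was lowest for Scn1a, Scn3a and Scn8a and highest for Scn2b and Scn4b. The long genes stood at -0.13, -0.13 and -0.16 (median log2 deviation from the group mean) in these 3 libraries, and the alpha genes at -0.22, -0.28 and -0.13 (mean log2 deviation). Over all 23 libraries these deviations had a Pearson's r of 0.71. Some libraries had opposite signs, as Grik WT replicate 5 (-0.017 for long and 0.136 for alpha genes) and SST replicate 7 labelled cKO (-0.060 and 0.104). The shares of the alpha genes given above are formed within a library.

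Levels of different genes were compared per kb of exon. In CamK WT the order was Scn2b (77.7 CPM per kb), Scn3b (69.5), Scn2a (16.0), Scn8a (13.4), Scn4b (8.26), Scn1a (3.76) and Scn3a (1.94), and no neighbours in this order overlapped over the 4 libraries. In Grik WT it was Scn2b (86.6), Scn3b (48.4), Scn2a (20.2), Scn8a (16.8), Scn1a (4.597), Scn4b (3.92) and Scn3a (2.26), where Scn2a overlapped Scn8a (18.0 to 21.9 against 14.5 to 19.1) and Scn1a overlapped Scn4b (3.81 to 5.18 against 3.14 to 4.87). The SST WT order was Scn2b (92.1), Scn3b (24.8), Scn1a (15.1), Scn2a (11.7), Scn8a (10.4), Scn4b (4.64) and Scn3a (1.29). There Scn1a (11.9 to 16.6 CPM per kb) overlapped Scn2a (9.04 to 13.2), and Scn2a overlapped Scn8a (8.74 to 11.7). Such orders depend on the length used. With no length, the CamK WT means were 379 CPM for Scn3b, 362 for Scn2b, 211 for Scn8a, 203 for Scn2a, 41.9 for Scn1a, 41.1 for Scn4b and 24.2 for Scn3a. The longest transcript has 4150 bases for Scn3b and 4656 for Scn2b.

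Most of the variation of each gene lay between populations. Over the 23 libraries, population took 97.2% of the variance of log2 CPM for Scn1a, 96.0% for Scn3b, 86.4% for Scn2a, 82.9% for Scn3a, 82.4% for Scn8a, 79.7% for Scn4b and 69.7% for Scn2b. The genotype label within a population took 0.715 to 5.57%.

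In the comparison of genotypes, none of the 7 genes passed an adjusted p of 0.05 in any population. The background was low too, with 0.0106% of all genes passing in each population by edgeR, and DESeq2 and limma-voom also called 0 of 7 in each. At an unadjusted p under 0.05, the edgeR test had 1 member in CamK, 1 in Grik and 0 in SST, beside 7.05, 4.88 and 5.85% of all genes.

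In CamK the alpha genes were the members nearest to a difference. Scn1a was at 48.4, 54.1 and 49.4 CPM in the libraries labelled cKO (replicates 4, 5 and 6), all above the 39.5 to 43.8 CPM of WT, with a log2 fold change of 0.27 (SE 0.10, 95% interval 0.06 to 0.48, unadjusted p 0.0141 and adjusted p 0.660 in edgeR). Scn2a was at 218, 249.6 and 231 CPM, also above all WT libraries, with a log2 fold change of 0.20 (SE 0.10, 95% interval -0.01 to 0.40, edgeR adjusted p 0.723). Groups did not overlap for 2 of 7 members, and for 6.75% of all genes. Scn3a and Scn8a both had log2 fold changes of 0.15, and Scn2b, Scn3b and Scn4b had -0.01, -0.08 and 0.16. These values rested on single libraries: without replicate 5 labelled cKO Scn8a was at 0.05 and Scn4b at 0.05, and Scn3a was at 0.06 without WT replicate 5 and at 0.24 without WT replicate 2. The median log2 fold change of the 682 long genes was 0.06 in this comparison, and the 17 non-neuronal markers summed to 236 to 301 CPM in the libraries labelled cKO, above the WT range, with 16 of 17 above 0 on the log2 scale and none called. With the non-neuronal score as a covariate the log2 fold changes were 0.23 for Scn1a, 0.13 for Scn2a, 0.10 for Scn3a, 0.07 for Scn8a, -0.17 for Scn3b, -0.04 for Scn2b and 0.02 for Scn4b, none called by edgeR. The part of the long genes in the CamK values was not tested.

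In Grik the member with the lowest p was Scn3a. It was at 24.7, 22.8, 24.7 and 24.6 CPM in libraries labelled cKO (replicates 1 to 4), against 23.9 to 30.5 CPM in WT, with a log2 fold change of -0.22 (SE 0.10, 95% interval -0.43 to -0.01, unadjusted p 0.0410 and adjusted p 0.992 in edgeR). WT replicate 6 lay within the values labelled cKO. Scn4b was at 22.2 to 27.0 CPM against 15.6 to 24.3 CPM, a log2 fold change of 0.28 (SE 0.14, 95% interval -0.0005 to 0.57, edgeR adjusted p 0.992). The other members lay between -0.09 and 0.04, and no member's groups were apart, where 4.59% of all genes were.

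In SST the 7 values lay between -0.04 for Scn3a and 0.21 for Scn4b, the latter at 20.9 to 34.5 CPM in libraries labelled cKO and 22.4 to 23.6 CPM in WT (SE 0.14, 95% interval -0.07 to 0.49, edgeR adjusted p 0.850). The Scn4b value was 0.06 without replicate 7 labelled cKO, 0.12 with the non-neuronal covariate and 0.03 with the replicate number as a block. Scn1a, the leading alpha gene of this population, was at 162, 177, 175 and 170.4 CPM in libraries labelled cKO (replicates 3, 4, 5 and 7), within the WT range of 133 to 185 CPM, with a log2 fold change of 0.02 (SE 0.09, 95% interval -0.17 to 0.22, edgeR adjusted p 0.981). No member's groups were apart, and 2.7% of all genes had groups apart.

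No member passed edgeR's test of a difference in the label's effect between populations. Between CamK and Grik, Scn1a differed by 0.36 (SE 0.14) and Scn3a by 0.37 (SE 0.15) on the log2 scale, each with an unadjusted p under 0.05, as had 6.5% of all genes, and an adjusted p of 0.754 in edgeR. Both values rest on the direction of the Grik labels. With these exchanged, Scn1a differed by 0.18 (SE 0.14) and Scn3a by -0.07 (SE 0.15), with edgeR adjusted p of 0.938 and 0.987. Scn4b then had the largest values, both of turned sign. They were 0.45 between CamK and Grik (SE 0.20, unadjusted p 0.0357 and adjusted p 0.797 in edgeR) and -0.49 between Grik and SST (SE 0.19, unadjusted p 0.0183 and adjusted p 0.620 in edgeR). The share of all genes that passed was 0.00531% of all genes for CamK and Grik, 0% for CamK and SST and 0.0106% for Grik and SST.

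No alpha subunit share passed between genotypes after adjustment. In Grik the Scn3a share was 4.84, 4.58, 4.55 and 4.40% in replicates 1 to 4 labelled cKO and 5.02 to 5.24% in WT, so the groups were apart by -0.56 points on average (two-sided exact permutation p 0.0286, adjusted 0.0762). In CamK the Scn1a share was 11.1 to 11.6% against 10.5 to 10.9%, apart by 0.67 points (exact permutation p 0.0571, adjusted 0.137). In SST the largest share, that of Scn1a, was 39.3 ± 1.60% in libraries labelled cKO (SD, n = 4), a difference of 0.06 points from WT (exact permutation p 0.971). All adjusted values are over the 24 share tests.

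**Figure D3:**
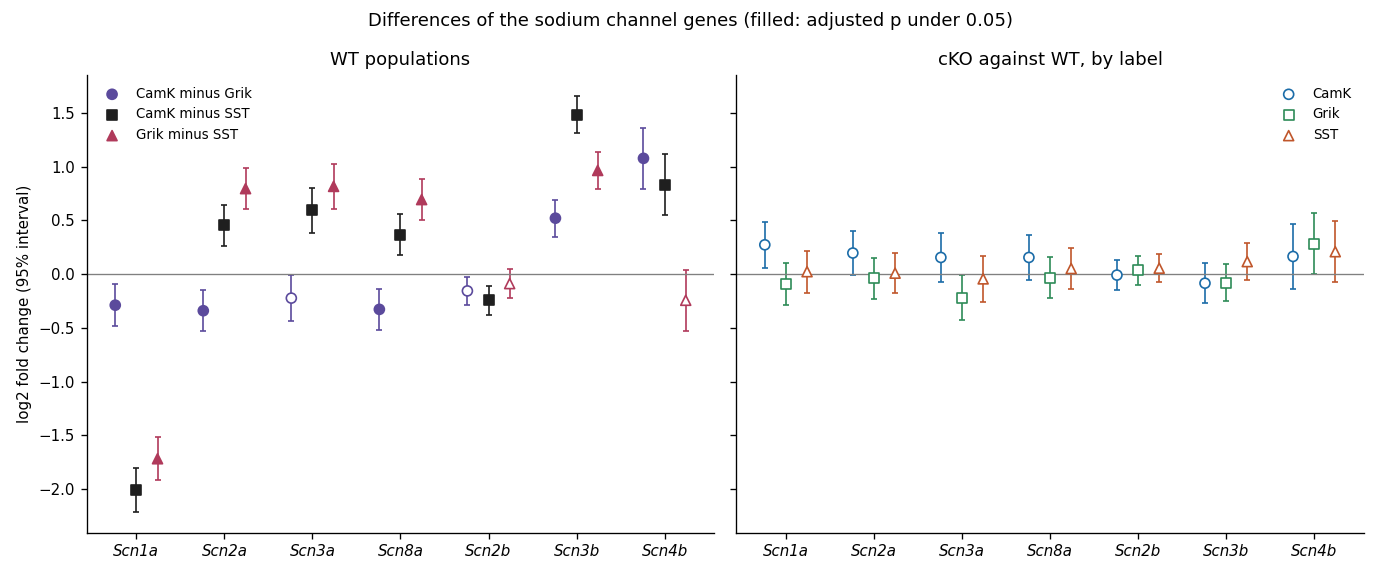
Log2 fold changes of the 7 genes with 95% intervals, between WT populations (left) and between libraries labelled cKO and WT in each population (right), on 1 shared axis. Filled markers passed an adjusted p of 0.05 in edgeR. The population differences reach from -2.01 for Scn1a to 1.48 for Scn3b, both CamK against SST, and the genotype differences stay between -0.22 and 0.28 with no filled marker.

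Genes for proteins that act with sodium channels were examined as 4 lists chosen by function. Each count of called genes stands beside a background of 42% of all tested genes called between CamK and Grik, 60.1% between CamK and SST and 57.3% between Grik and SST, and nothing particular to a list is read from it. Among further alpha subunit genes and the related leak channel gene Nalcn, Scn4a, Scn10a and Scn11a did not pass the filter on low counts. Nalcn, Scn7a and Scn9a did, and of these 3 genes 0 were higher and 2 lower in CamK than in Grik, 0 and 2 in CamK than in SST, and 1 and 0 in Grik than in SST. Scn7a, which encodes a sodium-sensing channel relative, was at 0.110 ± 0.0516 CPM in CamK WT, 2.19 ± 0.265 CPM in Grik WT and 1.502 ± 0.338 CPM in SST WT (SD, n = 4). Its log2 fold changes were -4.29 (CamK against Grik, SE 0.29, edgeR adjusted p 1.21e-11) and -3.75 (CamK against SST, SE 0.28, edgeR adjusted p 2.76e-11), in the direction of the non-neuronal markers given above, whose part was not tested. In Grik against SST Scn7a was higher (log2 0.55, SE 0.23, edgeR adjusted p 0.0427), the groups overlapping. Nalcn was lower in CamK than in Grik (log2 -0.54, SE 0.09). Scn9a, the channel gene of sensory neurons, did not pass in CamK against SST (log2 -0.63, SE 0.34) or in Grik against SST (log2 -0.48, SE 0.34).

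Of 9 genes of the axon initial segment and node, where the channels are anchored, 1 was higher and 4 were lower in CamK than in Grik, 2 and 5 in CamK than in SST, and 4 and 1 in Grik than in SST. Kcnq3, which encodes a potassium channel subunit that shares the ankyrin anchor of the sodium channels, was higher than in SST in both pyramidal populations (log2 0.81 in CamK, SE 0.07, and 0.70 in Grik, SE 0.07), past the threshold in edgeR. Trim46, the gene of a protein that bundles microtubules at the start of the axon, was also higher than in SST in both (log2 0.41 in CamK, SE 0.08, and 0.41 in Grik, SE 0.08). The adhesion molecule gene Nrcam was lower in CamK than in Grik (log2 -0.65, SE 0.09), as was Cntn1, another adhesion molecule gene (log2 -0.58, SE 0.08), and the spectrin gene Sptbn1 was lower in CamK than in SST (log2 -0.79, SE 0.18).

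Cytosolic partners bind the channel from inside the cell or mark it for removal. Of 9 such genes, 3 were higher and 1 lower in CamK than in Grik, and all 9 passed against SST, 6 higher and 3 lower in each pyramidal population. The genes of the fibroblast growth factor homologous factors, which bind the tail of the alpha subunit and alter its inactivation, differed in direction. Fgf12 was lower than in SST by 1.80 in CamK (log2 -1.80, SE 0.10) and by 2.11 in Grik (log2 -2.11, SE 0.10). Fgf11 was lower than in SST in Grik (log2 -2.23, SE 0.14) and in CamK (log2 -0.92, SE 0.14), and higher in CamK than in Grik (log2 1.31, SE 0.14). Fgf13 was lower in CamK than in Grik (log2 -0.66, SE 0.08) and higher than in SST in both pyramidal populations (log2 1.003 and 1.66). The calmodulin gene Calm2 was higher than in SST in both (log2 1.30 in CamK, SE 0.09, and 0.89 in Grik, SE 0.08).

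The 5 genes of RNA and transcription regulators gave 0 higher and 1 lower in CamK than in Grik, 3 and 1 in CamK than in SST, and 4 and 0 in Grik than in SST. Celf4, an RNA-binding protein gene, was lower in CamK than in Grik (log2 -0.75, SE 0.06) and higher in Grik than in SST (log2 0.73, SE 0.06). Rcor1, the gene of a corepressor that works with Rest, was higher than in SST in both (log2 1.03 in CamK, SE 0.08, and 1.11 in Grik, SE 0.08). Rest itself, a repressor of neuronal genes with Scn2a among its classical targets, was lower in CamK than in SST (log2 -0.59, SE 0.20, edgeR adjusted p 0.0137), and its -0.41 against Grik did not pass (SE 0.20, edgeR adjusted p 0.105). In Grik against SST its -0.18 did not pass either (SE 0.20, edgeR adjusted p 0.466). Its level was low, at 1.30 to 1.86 CPM in CamK WT, 1.27 to 2.83 CPM in Grik WT and 2.24 to 3.02 CPM in SST WT. The non-neuronal markers given above were also lower in CamK than in SST. Their part, and any link of Rest to Scn2a, was not tested. Between genotypes, edgeR called no gene of the 4 lists in any population. At an unadjusted p under 0.05 there were 1 of the further alpha genes (Scn7a) and 3 initial segment genes in CamK, 0 in any list in Grik, and 1 initial segment gene in SST, where 7.05, 4.88 and 5.85% of all genes were under it in CamK, Grik and SST.

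**Figure D4:**
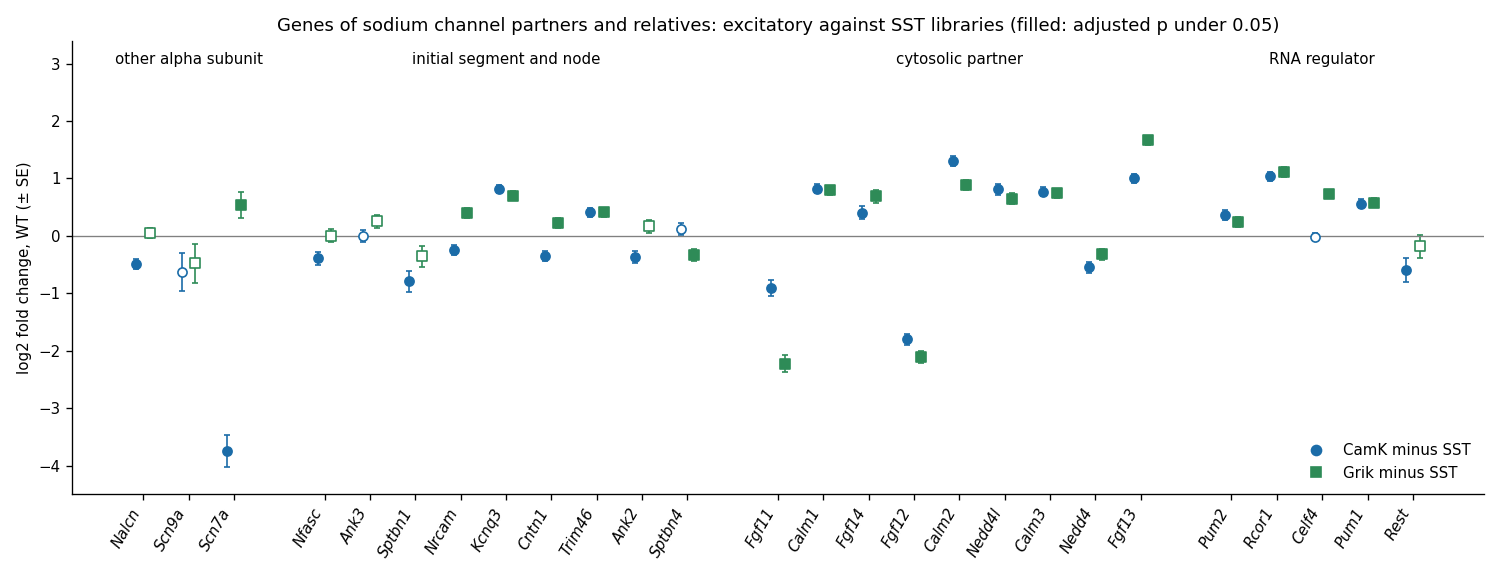
Log2 fold changes (± SE) of the listed partner genes in CamK WT (circles) and Grik WT (squares) against SST WT, the same SST libraries for both. Filled markers passed an adjusted p of 0.05 in edgeR. Scn7a at -3.75 in CamK, Fgf11 at -2.23 in Grik, and Fgf12 at -1.80 and -2.11 are the lowest, and Fgf13 at 1.66 in Grik is the highest.

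The genes most like each member in pattern were found by Pearson's r of log2 CPM over the 23 libraries among 9110 genes with a mean of at least 10 CPM. All these points share the 3 populations, so r is a description of the steps between populations. Scn1a was nearest to Slc38a1, a glutamine transporter gene (r 0.99), which was at 94.9 ± 5.26 CPM in CamK WT, 105 ± 4.49 CPM in Grik WT and 297 ± 34.0 CPM in SST WT (SD, n = 4), followed by the protocadherin-type gene Dchs1 (r 0.99). Scn2a was nearest to Gabrb1, a GABA-A receptor subunit gene (r 0.98), and Atrnl1 (r 0.97). Scn8a was nearest to Kcnma1, the gene of the BK potassium channel (r 0.97), which was at 64.4 ± 9.28, 90.2 ± 9.35 and 46.4 ± 6.38 CPM in CamK, Grik and SST WT (SD, n = 4), and to D630045J12Rik (r 0.96). Scn3a had Trib2 (r 0.96) and the calcium channel gene Cacna1e (r 0.95), which stood at 199 ± 36.6 CPM in CamK WT, 274 ± 38.7 CPM in Grik WT and 47.9 ± 7.70 CPM in SST WT (SD, n = 4).

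Among the beta genes, Scn3b was nearest to Spink8 (r 0.99), with 36.9, 10.7 and 1.11 CPM in CamK, Grik and SST WT, and to Arpc2, a gene of the actin-nucleating Arp2/3 complex (r 0.99). Scn4b was nearest to Cyp46a1, the cholesterol 24-hydroxylase gene (r 0.95), and Ptn (r 0.95), and Scn2b to Tmx2 (r 0.93) and the lysosomal protease gene Ctsd (r 0.92). No member was among the 2 nearest genes of another member. Alpha genes were still alike in part, Scn2a having r 0.95 with Scn8a and 0.93 with Scn3a, and Scn3a 0.89 with Scn8a. Scn1a had r -0.84 to -0.76 with these 3 genes.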

How the data were processed

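Raw read counts per Ensembl gene were deposited for 23 libraries in 1 table. The authors made it with Trimmomatic, STAR and the GRCm38 build, per the submitters' processing notes, while versions, annotation, strandedness and any filter are not given in the sources used here. Of 45706 gene IDs, 45143 matched a symbol in GENCODE M21. Reads that name no gene (12.4 to 18.4%) were left out. Gene totals were 87612006 to 112993538 reads.

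Tests used edgeR 4.0.16 in R 4.3.3: filterByExpr over 6 groups (18823 genes kept), TMM factors (0.93 to 1.14), all libraries in 1 robust quasi-likelihood fit with 17 residual degrees of freedom, and Benjamini-Hochberg adjustment over all genes at 0.05. The common biological coefficient of variation was 16.3%. Replicates differed beyond sampling noise (chi-square per degree of freedom 8.4 to 208). Alpha subunit shares (reads per union exon length) were tested by two-sided exact permutation, adjusted over 24 tests. The edgeR function was tested on simulated data.

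All 7 members are named, with the 2 most alike genes of each and the 2 largest log2 fold changes of each partner list in each WT comparison. The members and lists were chosen with earlier results of these data known, and some list genes and sequences are not reported here. Alternatives were relative log expression scaling, no count filter, DESeq2 1.42.0, limma-voom (limma 3.58.1), the compared populations alone, a replicate block, a non-neuronal covariate, each library left out and, added after seeing the data, Grik libraries labelled cKO in place of those labelled WT or the Grik labels exchanged, and for shares other lengths and denominators.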

Additional observations from a re-analysis of the deposited data

Results flagged for a closer look

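Dixon's criterion was applied to 55 groups of 4 libraries, where chance flags about 1 in 20 groups (2.75 expected), and 2 libraries stood apart from their group. Scn3a in Grik replicate 2 labelled cKO was the lowest of its group at 22.8 CPM, where the other 3 libraries were at 24.6 to 24.7 CPM. The Scn2a share of SST WT replicate 5 was the highest of its group at 33.0% of the alpha total, where the other 3 were at 29.4%.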

How the results depend on the processing

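The counts of called members against SST, and the counts of 0 between genotypes, kept their size under every alternative except for 1 gene more or less. With the non-neuronal covariate CamK against SST lost Scn2b, and without Grik WT replicate 6 Grik against SST gained Scn4b. The count for CamK against Grik fell from 5 to 2 with the non-neuronal covariate, where Scn1a, Scn2a and Scn8a were lost. It was 6 with relative log expression scaling and with DESeq2, both gaining Scn2b, and 4 to 6 with a library left out: Scn3a was gained without CamK WT replicate 2 or Grik WT replicate 6, Scn2b without Grik WT replicate 3 or 4, and Scn1a lost without CamK WT replicate 5 or Grik WT replicate 5. Without TMM scaling the median of all genes in Grik against SST was -0.16, and -0.03 with it. With the Grik libraries labelled cKO in place of those labelled WT, an alternative chosen after seeing the data, the counts stayed at 5 against CamK and 5 against SST, and Scn4b in Grik against SST turned from -0.24 to 0.040. With the Grik labels exchanged, also added after seeing the data, the Scn3a difference in effect between CamK and Grik turned to -0.065. The Scn4b difference turned to 0.45 between CamK and Grik and to -0.49 between Grik and SST. The cause of these changes was not tested.

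The replicate numbers were not used as pairs, since only 1 of 6 same-number pairs had a correlation above 0.1 (range -0.0999 to 0.129). With the replicate block no call of a member changed. It turned the sign of Scn2a in Grik (0.034), and of Scn1a (-0.041), Scn2a (-0.080) and Scn8a (-0.031) in SST, all genotype values near 0. Scn2a in SST also turned with SST fitted alone (-0.010) and with the non-neuronal covariate (-0.021).

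Leaving out 1 library turned the sign of other uncalled genotype values. Ranges on the log2 scale were -0.23 to 0.017 for Scn3b and -0.026 to 0.025 for Scn2b in CamK, -0.10 to 0.032 for Scn8a, -0.096 to 0.0011 for Scn2a and -0.015 to 0.094 for Scn2b in Grik, and -0.022 to 0.099 for Scn8a, -0.10 to 0.025 for Scn3a, -0.095 to 0.075 for Scn2a and -0.077 to 0.063 for Scn1a in SST. Share differences, in percentage points, ranged in CamK from -0.35 to 0.17 for Scn3a, -0.38 to 0.80 for Scn2a and -1.79 to 0.10 for Scn8a. In Grik they ranged from -0.52 to 0.99 for Scn2a and -0.19 to 1.22 for Scn8a, and in SST from -0.43 to 0.77 for Scn1a, -0.69 to 0.58 for Scn2a and -0.39 to 0.86 for Scn8a. Between CamK WT and Grik WT the range was -1.38 to 0.12 for Scn2a and -0.81 to 0.60 for Scn8a, and with the other alpha genes (Nalcn not included) in the denominator the Scn8a difference was 0.036. The Scn1a share differences from SST ranged from -28.8 to -28.3 points for CamK and -29.0 to -28.6 for Grik with a library left out. They were -25.1 and -25.4 with no length, -27.8 and -28.1 with the longest transcript, and -28.03 and -28.3 with the wider denominator.

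With 4 libraries in each group, a share test cannot give an exact permutation p below 0.0286. With 3 against 4, as between the CamK genotypes, it cannot give one below 0.0571. Counts over whole genes do not show splicing, and exon choice was not analysed here.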
